A study of Mus musculus with 4 samples.

Results

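Expression of 9 effector genes of disease-associated microglia was examined in RNA sequencing libraries of cultured mouse microglia. The genes were taken by symbol from the deposited files, as genes known to rise in microglia near disease lesions and in developing white matter, and no level or test entered the rule. They were Apoe, Apoc2, Lpl, Spp1, Igf1, Gpnmb, Ank, Cst7 and Serpine2, 9 of 56832 genes listed. All 4 libraries formed 1 group. The cells were microglia of the C57BL/6 strain, labelled female, grown in primary glial culture, detached with trypsin and sorted by flow cytometry, and the labels name no treatment, genotype or age. The wider series also concerns cultured blood stem and progenitor cells and their co-culture with glia depleted of microglia; those samples were not analysed here, so no contrast between groups was made. Nothing in the labels says that the libraries came from separate cultures, so SDs and p-values describe the spread between libraries, which may be technical.

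Microglia are the resident macrophages of the brain. Around amyloid plaques, demyelinated lesions and dying neurons, and in white matter while myelin is being laid down, they lower homeostatic genes such as P2ry12 and raise a programme of lipid handling, lysosomal and secreted proteins. The later step of this programme depends on the lipid receptor Trem2. The effector genes are among its most used markers, and several encode proteins that leave the cell.

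The libraries held 23212183 to 28469813 gene counts. Genes of homeostatic microglia were present: 14 of 15 had a CPM (counts scaled to a total of 1000000) of at least 1 in every library, and Siglech was the exception, with 4 to 38 counts. Of 10 markers of border-associated macrophages, the macrophages of meninges and vessels, 4 were at or above 1 CPM in every library (Stab1, Ms4a7, Mrc1 and Pf4), and the list summed to 3419 to 3700 CPM. Cd163 and Lyve1, also in the list, had 0 counts. The part of such cells in the levels of the effector genes was not tested. The monocyte and neutrophil list summed to 1.55 to 2.69 CPM, with 8 of its 10 genes at 0. The astrocyte list summed to 490 to 831 CPM, with none of its 14 genes at 0 in all libraries, the oligodendrocyte lineage list to 252 to 277 CPM, with Mog at 0, and the mural and fibroblast list to 111 to 145 CPM. Transcripts of the Y-linked gene Ddx3y, at 30.0 to 41.5 CPM, were found in every library beside Xist at 253 to 341 CPM, although the label gives the sex as female.

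Sequence before the transcription start was available for 8 of the 9 genes in RefSeq's promoter table, and Lpl had no entry. The build was GRCm38.p6, another than the one used for the counts. Apoe had 3 starts there, Spp1 had 2 and the others 1. The start nearest the outer start of the gene in GENCODE M21 was used, and the other starts of Apoe and Spp1 were not examined. The 250 bases before the start of 4 genes are shown because the genes differ in their CG dinucleotides, which are in capitals, and in how much their RNA varied between libraries, given further on. Apoe and Spp1 had the highest RNA levels per length (by CPM, without length, Lpl lay above Spp1), Gpnmb the largest spread and Ank one of the smallest.
Apoe, chr7:19699189-19699438, minus strand: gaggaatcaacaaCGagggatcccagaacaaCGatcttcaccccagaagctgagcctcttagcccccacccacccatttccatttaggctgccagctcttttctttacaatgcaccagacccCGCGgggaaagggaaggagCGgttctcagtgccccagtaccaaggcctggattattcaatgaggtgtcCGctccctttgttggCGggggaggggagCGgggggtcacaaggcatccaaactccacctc
Spp1, chr5:104434861-104435110, plus strand: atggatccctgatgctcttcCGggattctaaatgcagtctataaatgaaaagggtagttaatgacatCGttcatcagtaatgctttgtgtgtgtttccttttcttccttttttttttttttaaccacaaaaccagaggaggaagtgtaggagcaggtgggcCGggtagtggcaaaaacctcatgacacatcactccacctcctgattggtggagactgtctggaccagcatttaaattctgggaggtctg
Gpnmb, chr6:49036268-49036517, plus strand: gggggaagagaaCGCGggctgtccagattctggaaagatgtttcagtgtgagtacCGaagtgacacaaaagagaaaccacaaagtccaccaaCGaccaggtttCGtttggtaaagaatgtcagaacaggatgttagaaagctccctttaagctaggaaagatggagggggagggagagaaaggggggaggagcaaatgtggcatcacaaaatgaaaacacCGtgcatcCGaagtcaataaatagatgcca
Ank, chr15:27466427-27466676, plus strand: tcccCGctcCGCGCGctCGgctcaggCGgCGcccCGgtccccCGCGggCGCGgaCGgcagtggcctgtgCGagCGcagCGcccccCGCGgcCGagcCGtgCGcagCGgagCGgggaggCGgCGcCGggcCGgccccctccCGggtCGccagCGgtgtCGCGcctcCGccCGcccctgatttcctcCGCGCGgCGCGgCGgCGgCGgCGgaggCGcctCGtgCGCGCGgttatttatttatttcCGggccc
The Ank window held 49 CG dinucleotides, a number reached by 0.146% of the 32851 promoters in the table. Serpine2 followed with 34, reached by 3.53%. The windows of Apoe, Gpnmb, Apoc2, Igf1, Cst7 and Spp1 held 8, 7, 6, 5, 4 and 3, beside a median of 6 over all promoters. Motifs of factors active in macrophages were searched on both strands. CACGTG, the E-box read by MITF and TFE factors, was in none of the 8 windows and in 6.02% of all promoters. TGANTCA, the AP-1 motif, was only in the Igf1 window, 37 bases before the start, and in 6.75% of all. GAGGAAGT, a PU.1 motif, was only in the Spp1 window, 113 bases before the start, and in 2.44% of all. TATAAA was only in the Spp1 window, 211 bases before the start, and in 12.4% of all. The DR4 repeat read by liver X receptors was in 0 of the 8 windows and in 0.0152% of all. These are matches of letters and not evidence of binding.

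Of the 9 effector genes, 8 were at or above 1 CPM in every library, where 51.8% of 21187 protein-coding genes were. Their levels per length spanned from 27.5 to 50092 TPM (counts divided by merged exon length, then scaled to a total of 1000000). Of the 9, 6 reached a mean of 100 TPM, as did 7.47% of protein-coding genes. The median of the 9 was 187 TPM ± 11.7 (SD, n = 4 libraries), beside 1.68 TPM ± 0.123 over all protein-coding genes and 22.4 TPM ± 0.316 over those at 1 CPM or more. Together they took 3.44% ± 0.132 of all gene counts, of which Apoe alone made up 91.9% ± 0.587.

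**Figure D1:**
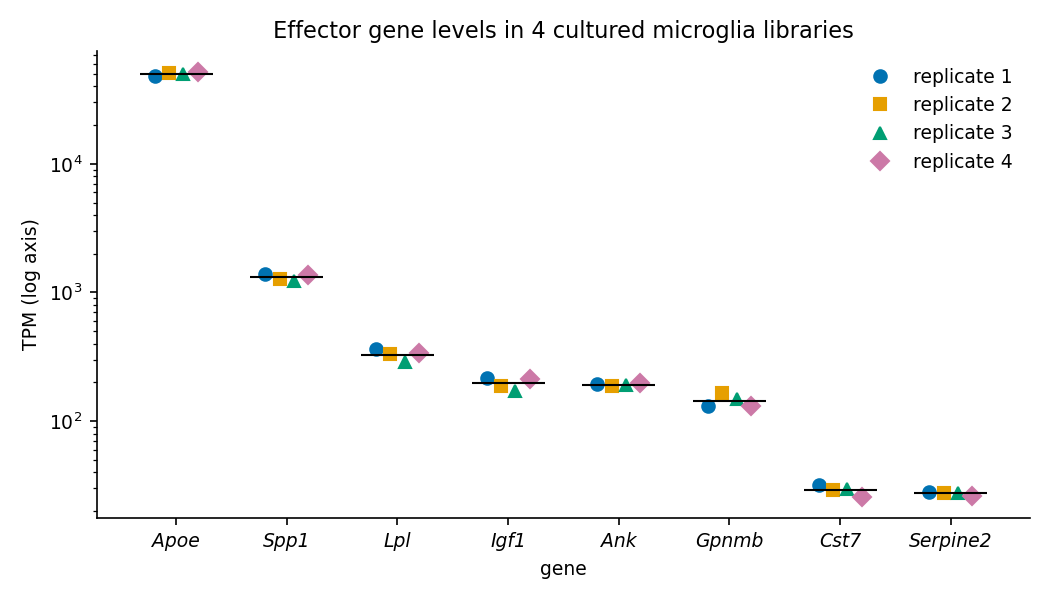
TPM of the 8 effector genes with reads on a log axis, 1 point per library and replicate, with a bar at the mean of 4. Apoe stands at 47990 to 51708 TPM, Spp1 at 1227 to 1385, and Cst7 and Serpine2 overlap between 25.9 and 32.0; Apoc2, with 0 counts in all libraries, cannot be drawn on this axis.

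The lipid genes come first. Apoe encodes the main lipid carrier of the brain, which takes cholesterol and phospholipid from glia. In replicates 1 to 4 it reached 29828.5, 32362, 31353 and 32832 CPM, so the libraries lay within a narrow band with replicate 1 lowest. Its mean of 50092 TPM ± 1678 ranked 1st of all protein-coding genes in each library. It was 2.42 to 2.99 times the TPM of the next gene, the ferritin light chain Ftl1. Astrocytes also make Apoe. The astrocyte list was lowest in replicate 1 too, at 490 CPM, beside 758, 831 and 665 CPM in replicates 2 to 4; the part of astrocytes in the Apoe level was not tested.

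Lpl encodes lipoprotein lipase, the enzyme that frees fatty acids from triglyceride-rich particles. Across replicates 1 to 4 it measured 1111, 1023, 888 and 1046 CPM. Replicate 3 was lowest and the other libraries lay close together. Its mean was 329 TPM ± 32.4, rank 433 of 21187.

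Apoc2 encodes the cofactor that lipoprotein lipase needs. No read was assigned to it in any of the 4 libraries; a count of 0 allows up to 0.105 to 0.129 CPM, depending on the library (3 counts, counting error only); 28.5% of protein-coding genes had 0 counts throughout. This 0 cannot be read as absence of the RNA. In GENCODE M21 (GRCm38), 646 of its 813 exon bases, 79.5%, are shared on the same strand with Gm44805, a transcript that runs from Apoc4 into Apoc2. No row of the count tables was matched to Gm44805, and whether the authors' annotation held it is not known, so the part of this overlap in the count of 0 was not tested. Of the 300 protein-coding genes whose share of exon bases free of other genes was no larger than that of Apoc2, 164 (54.7%) had 0 counts in all libraries. Reads called ambiguous made up 1.99% to 2.31% of all reads listed, and how many of them came from Apoc2 was not tested. The other effector genes share less: Spp1 shares 18.8% of its exon bases with another gene, Ank 1.80%, and the remaining 6 share 0. The effect of such overlap on their counts was not tested.

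The partners of these lipid genes were measured from a list of 23. Of them, 15 were at or above 1 CPM in every library and the list median was 12.2 TPM ± 0.567. The receptor Lrp1 (824 TPM ± 69.1) and the transporters that load lipid onto Apoe, Abca1 (609 ± 43.5) and Abcg1 (125 ± 7.63), were highest, followed by the phospholipid transfer protein Pltp (71.3 ± 6.17). Lmf1, which matures lipoprotein lipase in the endoplasmic reticulum, was at 6.5 TPM ± 0.483, and Angptl4, which inactivates the enzyme, at 13.5 ± 1.34. Gpihbp1, the anchor of the enzyme on capillary endothelium, had 0 to 2 counts per library. Apoc3, Apoa5 and Angptl8, which also act on the enzyme and are known mainly from liver, had 0 counts. Apoc1, a small apolipoprotein encoded beside Apoe, was at 24.1 TPM ± 3.16, so that Apoe exceeded it by 1862 to 2396 times within the libraries.

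Of the secreted ligands, Spp1 encodes osteopontin, a phosphoprotein that binds integrins and CD44. Its CPM values over replicates 1 to 4 were 664, 617, 599 and 675. Replicates 1 and 4 were higher than replicates 2 and 3. The mean was 1314 TPM ± 79.9, rank 81 of 21187. Its receptors were present as well: of 10 genes, 8 were at or above 1 CPM in every library; the list median was 53.9 TPM ± 4.42. The integrin subunits Itgb5 (2172 TPM ± 71.9), Itgb1 (526 ± 19.2), Itgav (139 ± 4.5) and Itga5 (122 ± 9.10) were highest. Cd44 was at 53.8 TPM ± 7.31, Itga9 at 53.9 ± 1.69, and Itgb6, an epithelial subunit, had 0 counts.

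Igf1 encodes insulin-like growth factor 1, by which microglia of developing white matter are known to aid myelination. In replicates 1 to 4 it reached 624, 551, 502 and 623 CPM. As for Spp1, replicates 1 and 4 were the higher libraries. The mean was 197 TPM ± 21.3. Its receptor Igf1r was at 5.72 TPM ± 0.392, and the ligand exceeded it by 28.3 to 39.9 times within the libraries. Of 15 genes of the IGF axis, 9 were at or above 1 CPM in every library; the list median was 6.67 TPM ± 1.75. They were led by the binding proteins Igfbp4 (360 TPM ± 14.5), Igfbp2 (170 ± 42.8) and Igfbp5 (154 ± 34.9) and the degrading enzyme Ide (56 ± 5.07). Igfbp1 and Igfals, known from the circulating IGF complex, had 0 counts.

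Among the membrane proteins, Gpnmb encodes a glycoprotein of lysosomes and the cell surface. Across replicates 1 to 4 it measured 246, 320, 286 and 252 CPM, highest in replicate 2. The mean was 144 TPM ± 17.2. Of 9 genes tied to Gpnmb, 8 were at or above 1 CPM in every library; the list median was 53.8 TPM ± 7.31. Adam10, a protease that sheds its outer part, was at 237 TPM ± 27.2 and Adam17 at 135 ± 6.96, and the proteoglycan Sdc4, to which it binds, at 127 ± 13.2. Among the factors that drive lysosomal genes, Tfe3 was at 78.7 TPM ± 0.862, Mitf at 40.9 ± 2.44 and Tfeb at 33 ± 3.13, while Tfec was at 1.14 ± 0.249. Pmel, the pigment cell relative of Gpnmb, had 3 to 10 counts per library.

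Ank encodes a transporter that moves pyrophosphate or its precursors out of the cell and so limits mineral deposition. Its CPM values over replicates 1 to 4 were 204, 199, 206 and 212. The libraries differed little, and the mean was 193 TPM ± 4.80. The list of 8 genes of pyrophosphate and phosphate handling had a median of 5.14 TPM ± 0.229, with 5 genes at or above 1 CPM in every library. The phosphate carriers Slc20a1 (32.3 TPM ± 4.07), Xpr1 (17.8 ± 0.501) and Slc20a2 (9.12 ± 0.738) were highest. Enpp1, which makes pyrophosphate outside the cell, was at 6.78 TPM ± 0.570. Alpl, which breaks it down, had 2 to 25 counts per library, and Enpp3 and Abcc6 had 0.

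The protease inhibitors were the lowest of the detected genes. Cst7 encodes cystatin F, an inhibitor that reaches lysosomes and acts on cysteine cathepsins. In replicates 1 to 4 it reached 9.18, 8.45, 8.62 and 7.59 CPM, from 198 to 248 counts. The mean was 29.1 TPM ± 2.51, rank 4677 of 21187. In a list of 13 targets and relatives with a median of 415 TPM ± 19.5, 8 genes were higher than Cst7 and 5, all cystatins, were lower. Cystatin C, Cst3, was at 10967 TPM ± 363, 328 to 436 times Cst7 within the libraries. The proteases Ctss (5097 TPM ± 372), Ctsb (3740 ± 181) and Lgmn (2328 ± 64.1) followed. Ctsc, a known target of cystatin F, was at 464 TPM ± 16.6. Cst6 had 0 to 5 counts per library, and the reproductive tract cystatins Cst8, Cst9, Cst11 and Cst12 had 0.

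Serpine2 encodes glia-derived nexin, which inhibits thrombin, urokinase and related serine proteases. Across replicates 1 to 4 it measured 67.2, 68.2, 68.4 and 64.9 CPM, the smallest spread of the effector genes. The mean was 27.5 TPM ± 0.749, rank 4855 of 21187. Other glia make it too, and their part in its level was not tested. Of 14 genes around it, 8 were at or above 1 CPM in every library and the median was 2.55 TPM ± 0.0974. The clearing receptor Lrp1 and urokinase Plau (363 TPM ± 23.9) were highest, then the urokinase receptor Plaur (27.2 ± 3.97). Prothrombin F2, plasminogen Plg, trypsinogen Prss1 and Serpinb2 had 0 counts.

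**Figure D2:**
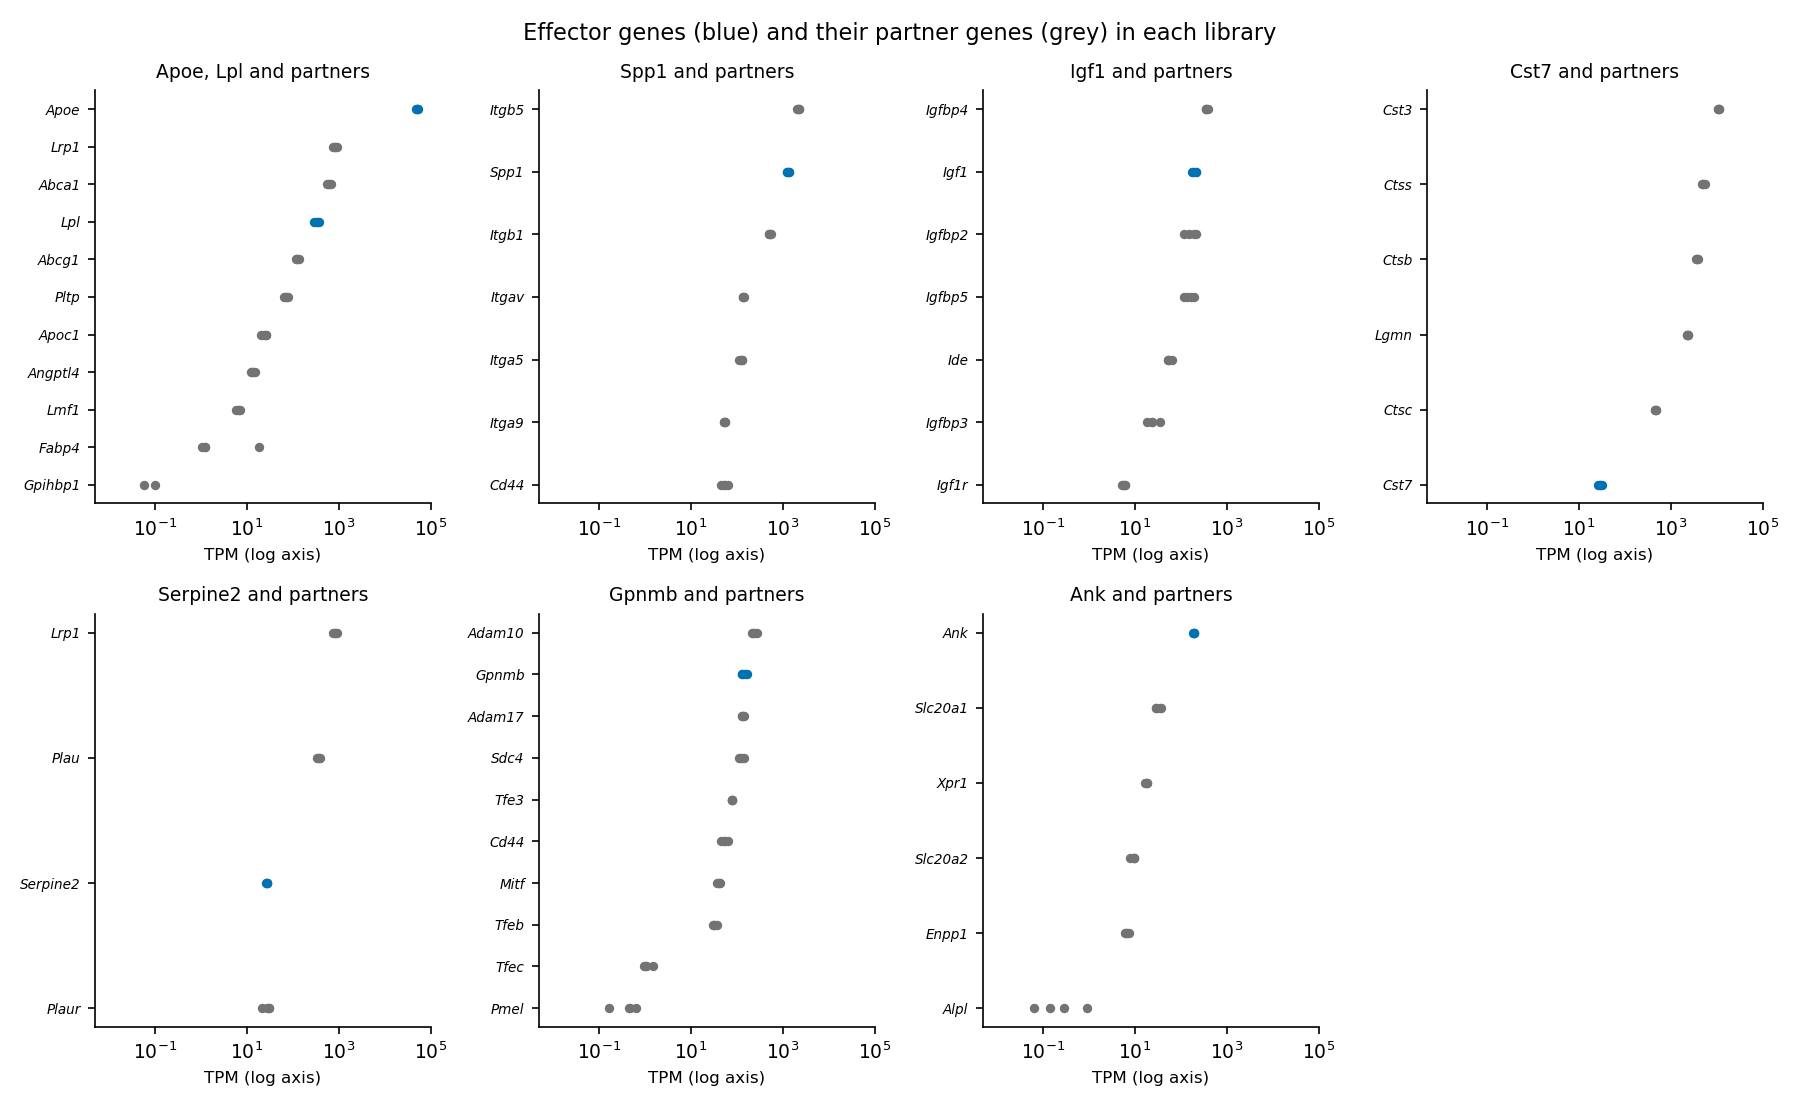
TPM of each effector gene (blue) and of the partner genes named in the text with a mean of at least 0.01 TPM (grey), on log axes, 1 point per library; a library at 0 has no point. Apoe and Ank lie above all partners drawn, Spp1 lies between Itgb5 and Itgb1, and Cst7 lies below the 5 genes drawn with it; its lower relatives are left out.

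The order of the effector genes was tested between neighbours in level. The order itself was taken from the mean levels in these same 4 libraries. The direction of each mean difference was therefore set by the values tested. For each pair the difference of log2(TPM + 1) was taken within each library and its sign was permuted exactly (two-sided test), whose smallest p with 4 libraries is 0.125, so no pair could pass 0.05. Apoe exceeded Spp1 by 5.25 ± 0.106 on the log2 scale, a 38.1-fold difference, in 4 of 4 libraries (exact p = 0.125, adjusted over 7 pairs 0.175). Spp1 exceeded Lpl by 2.00 ± 0.0828, Lpl exceeded Igf1 by 0.74 ± 0.0595, Ank exceeded Gpnmb by 0.43 ± 0.202 and Gpnmb exceeded Cst7 by 2.26 ± 0.203, each in 4 of 4 libraries with the same exact p and no overlap of the TPM ranges. Igf1 and Ank overlapped, with a difference of 0.03 ± 0.142 (3 of 4 libraries, exact p = 0.75), as did Cst7 and Serpine2, with 0.08 ± 0.0893 (3 of 4 libraries, exact p = 0.25, adjusted 0.292). Length matters to this order. By CPM, Lpl (1017 ± 93.7) lay above Spp1 (638 ± 36.4) by 0.67 on the log2 scale in 4 of 4 libraries, Gpnmb above Ank by 0.42 and Serpine2 above Cst7 by 2.85. With the longest transcript in place of merged exons, Apoe, Spp1, Lpl and Igf1 kept their places in mean level, Lpl at 635 TPM. Gpnmb then lay above Ank by 0.34 and Serpine2, at 50.8 TPM, above Cst7 by 1.17 on the log2 scale. Igf1 and Gpnmb, neighbours by this length, overlapped, with a difference of 0.13 ± 0.303 (2 of 4 libraries, exact p = 0.5).

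Beside the other genes of the programme the effector genes were mixed. All 9 other early disease-associated genes were at 1 CPM or more and above 100 TPM, with a median of 4085 TPM ± 315; Lyz2 (15979 ± 849), Ctsd (13831 ± 537), Tyrobp (4672 ± 360) and Fth1 (4663 ± 139) led them. All 18 other late, largely Trem2-dependent genes were at 1 CPM or more and 12 reached 100 TPM, with a median of 262 TPM ± 15.1. Ctsz (2892 TPM ± 172), Cd68 (2142 ± 56.8), Cd9 (991 ± 30.8) and Cd52 (960 ± 37.9) were highest. The integrin Itgax was lowest, at 1.99 TPM ± 0.215. Of 17 genes of white matter and developmental microglia, 5 of which are also late genes, 15 were at or above 1 CPM in every library; the list median was 92.1 TPM ± 3.20. Lgals1 (948 TPM ± 63.5), Cd63 (506 ± 71.4), Lgals3 (401 ± 33.7) and Cxcl14 (276 ± 14.9) led. Apoe lay above all 27 early and late genes and all 15 homeostatic genes. Spp1 lay below 8 of the 27 and 6 of the 15. Lpl, Igf1, Ank and Gpnmb each lay below 18 of the 27, and Cst7 and Serpine2 below 23 and 24. The homeostatic list had a median of 648 TPM ± 16.2, with Cst3, Fcrls (5346 ± 18.0) and Csf1r (2830 ± 108) among the highest. Of 23 upstream regulators, 22 were at or above 1 CPM in every library; the list median was 83.6 TPM ± 5.18. They included Tyrobp and its partner receptor Trem2 (778 ± 13.4) and the macrophage factor Spi1 (610 ± 16.7). The liver X receptor genes stood apart, Nr1h2 at 116 TPM ± 8.34 and Nr1h3 at 2.41 ± 0.203.

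**Figure D3:**
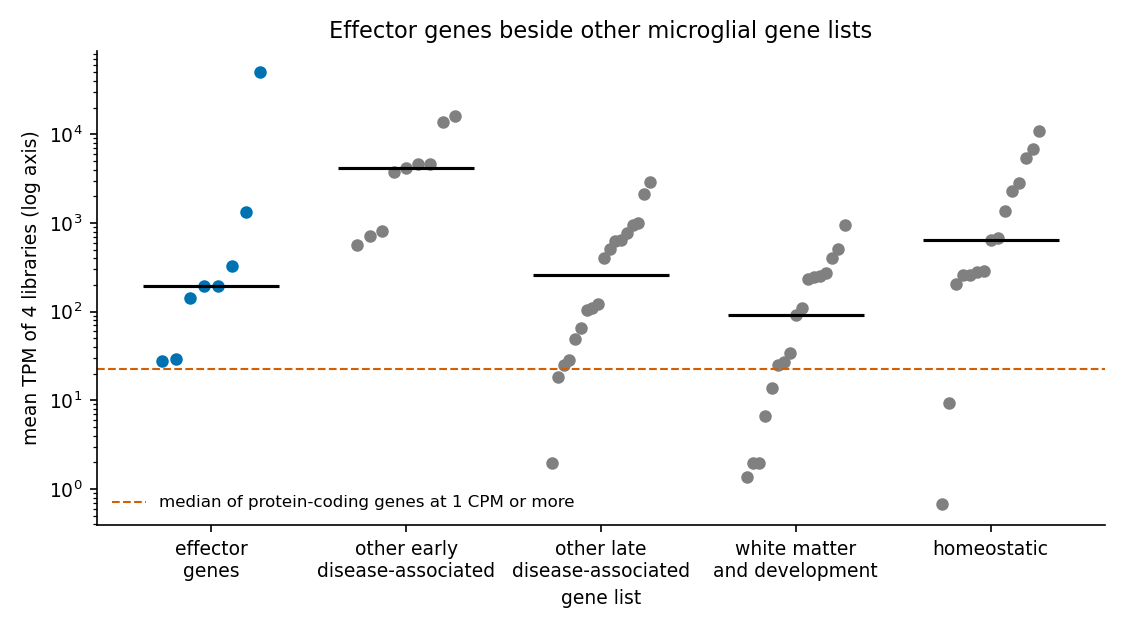
Mean TPM of each gene over the 4 libraries on a log axis, by list, with a bar at the median of each list; Apoc2, at 0, has no point but counts in the median. The effector genes range from 27.5 to 50092 TPM, and the dashed line marks the 22.4 TPM median of protein-coding genes at or above 1 CPM in every library.

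The last question was whether any effector gene varied between the libraries by more than genes of like abundance. Of the 8 tested, 0 passed (edgeR deviance test of 1 mean per gene, Benjamini-Hochberg adjusted p under 0.05), where 1.11% of the 12879 genes tested passed. At an unadjusted p under 0.05 there were 3, Igf1, Gpnmb and Lpl, and 6.79% of all genes; DESeq2 marked 0 of the 8 as dispersion outliers. Gpnmb had the largest coefficient of variation of CPM, 12.4% (edgeR adjusted p = 0.489), with replicate 2 above its mean by 0.22 on the log2 scale and replicate 1 below it, at -0.14. Igf1 (10.3%, edgeR adjusted p = 0.488) and Lpl (9.21%, edgeR adjusted p = 0.661) were both lowest in replicate 3, at -0.21 each. Among the listed genes that passed, P2ry12, a homeostatic receptor, was also lowest there, at 164 CPM beside 236, 185 and 249 in replicates 1, 2 and 4 (edgeR adjusted p = 0.0010); it did not pass without replicate 3 (edgeR adjusted p = 0.400) or without replicate 4 (0.061), nor with a common dispersion (0.122). Serpine2 (2.39%) and Ank (2.59%) varied least. These were the genes with the most CG dinucleotides before the start, 34 and 49. The other 5 genes with reads and a promoter entry held 3 to 8 and varied by 4.21% to 12.4%. This is a description of 7 genes measured in the same libraries. A relation of CG count and spread was not planned and was not tested over all genes.

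**Figure D4:**
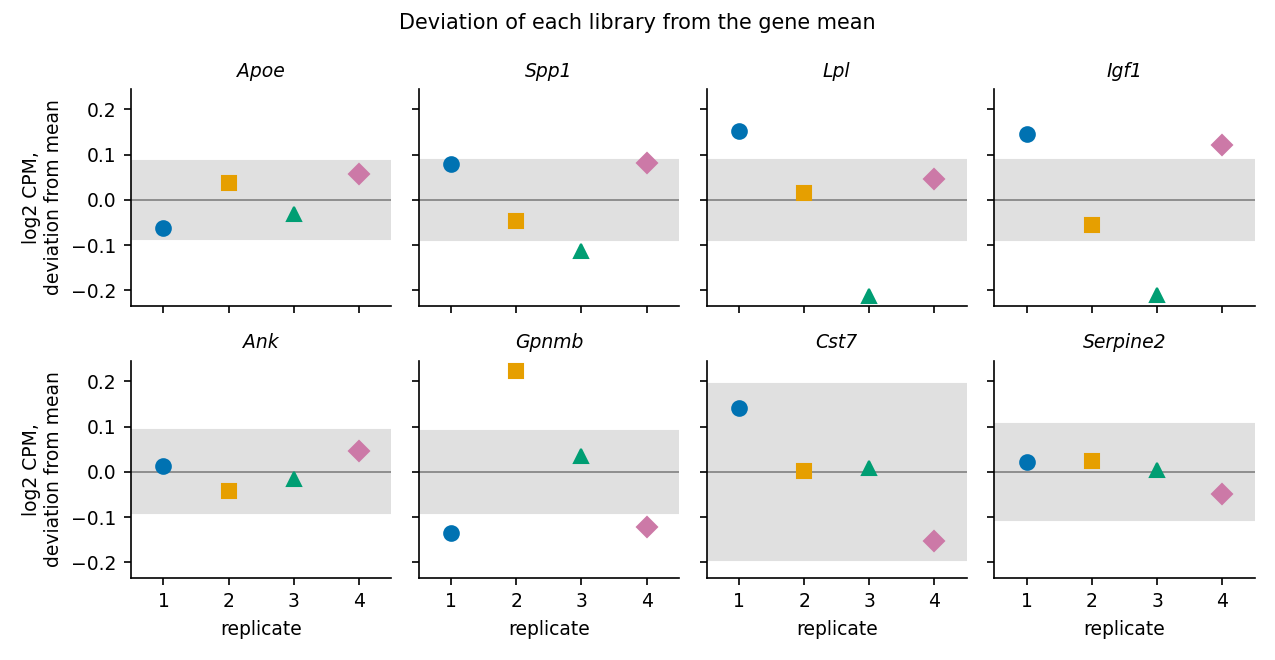
Deviation of log2 CPM (scaled by TMM) from the gene's mean in each library for the 8 effector genes. The grey band is 1 coefficient of variation from edgeR's dispersion trend for genes of that abundance, on the log2 scale. It leaves out counting error and is not the limit of the test. Gpnmb and Igf1 each lie outside the band in 3 libraries, Lpl in replicates 1 and 3 and Spp1 in replicate 3, and all points of Apoe, Ank, Cst7 and Serpine2 lie inside it.

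**Figure D5:**
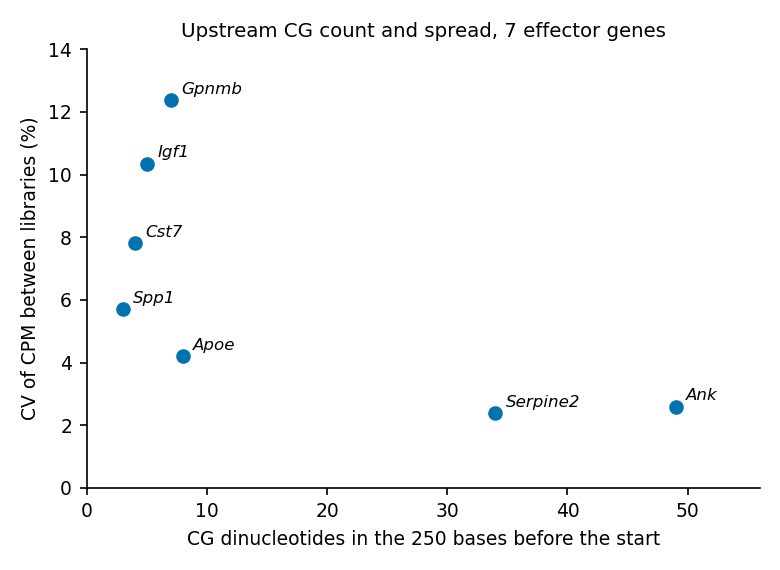
Coefficient of variation of CPM between the 4 libraries against the number of CG dinucleotides in the 250 bases before the start, 1 point per gene. Serpine2 and Ank lie apart at 34 and 49 dinucleotides with 2.39% and 2.59%. No relation was tested.

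Some partners did vary. Of 9 IGF axis genes tested, 3 passed, all binding proteins and all lowest in replicate 1. Over replicates 1 to 4, Igfbp5 measured 203, 298, 348 and 243 CPM (edgeR adjusted p = 6.7e-05). Igfbp2 was at 63.6, 108, 116 and 83.1 CPM (edgeR adjusted p = 7.9e-05), and Igfbp3 at 16.6, 22.1, 32.4 and 21.8 CPM (edgeR adjusted p = 0.038). Without replicate 1, Igfbp2 (edgeR adjusted p = 0.130) and Igfbp3 (0.251) did not pass, and without replicate 3, Igfbp5 (edgeR adjusted p = 0.099) and Igfbp3 (0.99998) did not. With a common dispersion Igfbp5 did not pass (edgeR adjusted p = 0.064). The astrocyte list, of which 4 of 12 tested genes passed, had the same order of libraries in its summed level, 490, 758, 831 and 665 CPM. So did the endothelial list (103, 127, 131 and 120 CPM) and the neuron list (13.4, 16.0, 18.0 and 15.4 CPM). The other marker lists had other orders. Acta2, the mural gene that passed (edgeR adjusted p = 0.0041), had the order of the binding proteins, but did not pass without replicate 3 (edgeR adjusted p = 0.936). The part of such cells in the binding proteins was not tested. Of those 4 astrocyte genes, Gfap, Slc1a3, Clu and Sparc, 0 passed without replicate 1 and 1, Gfap, with a common dispersion. Of 16 lipoprotein partners tested 1 passed, the fatty acid carrier Fabp4, at 23.6 CPM in replicate 1 beside 1.37 to 1.65 in the others (edgeR adjusted p = 1.4e-42). Of 17 white matter genes 1 passed, the chemokine Ccl3, highest in replicate 1 at 93.2 CPM beside 38.4 to 55.1 (edgeR adjusted p = 1.6e-13). Without replicate 1 neither Fabp4 (edgeR adjusted p = 0.99991) nor Ccl3 (0.284) passed. In the lists of other early and late genes, integrin receptors, cystatins and cathepsins, and genes around Serpine2, Ank and Gpnmb, 0 genes passed, and 1, 2, 1, 0, 1, 0 and 2 had an unadjusted p under 0.05 (edgeR). Of 20 immediate-early genes, which respond to handling of cells, 12 passed, of which 3, Fos, Egr1 and Ier2, also passed without replicate 1. The list summed to 2944 CPM in replicate 1 and to 1913 to 2243 in the others. The effector genes summed to 32754 CPM in replicate 1, their lowest, and to 33910 to 35712 in the others, but most of this sum is Apoe. Without Apoe they took 0.293% of gene counts in replicate 1, their highest share, and 0.256% to 0.288% in the others.

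The chromosomal neighbours of the effector genes were the 2 nearest protein-coding genes on each side in GENCODE M21. Beside the effector genes with reads most were lower, but so were most genes anywhere. Of all protein-coding genes, 77.1% lay below Serpine2, the lowest effector gene with reads, and 99.995% below Apoe. Tmem176a, Otulinl, Apmap, Mrpl44 and Cul3 were higher than the effector gene they neighbour. Beside Apoe, Tomm40 was at 30.9 TPM ± 1.58. Next to Spp1, its bone matrix relatives Mepe and Ibsp had 0 counts and Pkd2 was at 21.3 TPM ± 1.26. Next to Gpnmb, Malsu1 was at 10.4 TPM ± 2.00 and Aoc1 had 0 counts, but Tmem176a, the second gene away, was at 503 ± 18.8. Next to Igf1, Pmch had 0 counts. Ints10 and Slc18a1, next to Lpl, were at 10.1 TPM ± 0.399 and 0.350 ± 0.197. Otulin, which overlaps Ank, was at 166 TPM ± 11.5 and Otulinl beyond it at 317 ± 9.33, above Ank. Apmap, next to Cst7, was at 40.0 TPM ± 3.77. Mrpl44, next to Serpine2, was at 47.8 TPM ± 1.51. Fam124b, next to Serpine2 on the other side, was at 0.0322 TPM ± 0.0644, with 3 counts in all libraries together. Cul3, the second gene away, was at 45.3 TPM ± 5.91. The gene nearest to Apoc2, Apoc4, was at 0.127 TPM ± 0.124, with 10 counts in all libraries together, and Apoc1 beyond it at 24.1 ± 3.16. On the other side of Apoc2, Clptm1 was at 175 TPM ± 9.12 and Relb beyond it at 59.1 ± 2.7.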

How the data were processed

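RNA was sequenced from 4 libraries of sorted cultured microglia. The authors deposited raw read counts per gene symbol, 1 file per library. The submitters' processing notes name HTSeq 0.11.2, STAR 2.7.10a, SAMtools 1.16.1 and the build mm39. The annotation release is not given. The names of the deposited tables hold the words strict and no, which may be the HTSeq overlap mode and strand setting, but no source says so; without strand, a gene and an antisense partner cannot be told apart. The 5 summary lines, 11.6% to 12.0% of reads, were left out. No files were identical, and counts of library pairs differed by 5.43 to 14.6 times the chi-square degrees of freedom. CPM and TPM were computed here, TPM from merged exon lengths in GENCODE M21 (GRCm38), matched by symbol (98.8% of counts). The spread between libraries was tested over all genes in edgeR 4.0.16 (R 4.3.3; TMM, filterByExpr, trended dispersion, deviance against chi-square with 3 degrees of freedom, Benjamini-Hochberg threshold 0.05), with DESeq2 1.42.0 as an alternative. On counts simulated for 12879 genes, the test recovered 16.4% of 67 genes changed 1.5-fold in 1 library, 95.5% of 67 at 2-fold and 100% of 66 at 4-fold. Of the unchanged genes 4 passed. The changed genes were drawn from those with higher counts, and every gene was given the dispersion of the fitted trend. The rates therefore do not hold for genes with few counts. The common coefficient of variation was 10.3%. The effector genes and the lists were chosen with earlier results of these data known. Genes named are the effector genes, the highest of a list (up to 4), those that passed the spread test, partners with 0 counts and chromosomal neighbours; other partners named for their role (Lmf1, Angptl4, Gpihbp1, Apoc1, Igf1r, Alpl, Ctsc, Cd44, Itga9, Mitf, Tfeb, Tfec, Pmel, Itgax, Siglech, Nr1h2 and Nr1h3) were chosen after their values were seen. Some genes that this rule names are not reported here.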

Additional observations from a re-analysis of the deposited data

Results flagged for a closer look

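In 146 quantities, CPM of named genes and summed CPM of lists, the most distant of the 4 libraries was compared with the range of the group (Dixon's 95% criterion); chance flags about 1 in 20. Of the 8 effector genes with reads 0 were flagged, and 10 quantities were, 6 of them for replicate 1. The summed level of the 2 inhibitors Cst7 and Serpine2 was 72.5 CPM in replicate 4 beside 76.4 to 77.0 CPM in the others (ratio 0.873). Fabp4 was high in replicate 1, as given above (ratio 0.987). Tyrobp, the signalling partner of Trem2, was at 802 CPM in replicate 1 beside 950 to 967 (ratio 0.894). Egr1 was at 231 CPM there beside 39.9 to 72.4 (ratio 0.830), Egr2 at 20.1 beside 4.5 to 6.94 (ratio 0.843) and Tubb3 at 1.89 beside 0.0702 to 0.215 (ratio 0.920). The lower values of Tubb3 lie near the level of 3 counts, 0.105 to 0.129 CPM depending on the library. The phosphate carrier Slc20a2 was at 14.8 CPM in replicate 4 beside 17.1 to 17.5 (ratio 0.842). Of chromosomal neighbours, Csgalnact1 was at 0 CPM in replicate 1 beside 0.281 to 0.302 (ratio 0.932), Fbxl7 at 0.983 in replicate 4 beside 2.35 to 2.46 (ratio 0.926) and Wdfy1 at 13.9 there beside 11.3 to 11.7 (ratio 0.845). Csgalnact1 rests on 22 counts in all libraries together.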

How the results depend on the processing

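No effector gene passed the spread test under any alternative run. The count over all genes, 143, was 532 with a common dispersion (81 shared with the 143), 69 by DESeq2 and 47 to 118 when 1 library was left out, with 47 without replicate 1 and 52 without replicate 3; the cause was not tested. On CPM without gene length the differences of neighbours turned for Spp1 minus Lpl (-0.67), Ank minus Gpnmb (-0.42) and Cst7 minus Serpine2 (-2.85); with the longest transcript they turned for Ank minus Gpnmb (-0.34) and Cst7 minus Serpine2 (-1.17). Igf1 minus Ank was -0.017 without replicate 1 and up to 0.091 without another library. The median of the effector genes was 182 to 195 TPM over its alternatives, and 6 reached 100 TPM in each. Of 228 recomputed values 188 were labelled unchanged, by a rule that differed with the kind of value. A neighbour difference had to keep its sign, and a level or list median to lie within 1 SD of its main value. A count had to stay within 1.5-fold, and an adjusted p on the same side of the test threshold. The label therefore does not say that the order of the genes was kept. The 30 that moved for single genes and list medians came from the length, the genes in the TPM total or dropping genes near 0. No paired analysis was possible because there is 1 group. The leave-one-out values of partner genes were chosen after seeing the data. With 4 libraries a difference of 1.5-fold in 1 of them is mostly missed, and Cst7 rests on 198 to 248 counts per library.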
